A study of Homo sapiens with 6 samples.

Results

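Heme breakdown and iron handling were followed through 10 genes that encode the heme oxygenases (HMOX1, HMOX2), the biliverdin reductases (BLVRA, BLVRB), the ferritin chains (FTH1, FTL), the transferrin receptor (TFRC) and transporters of iron or heme (SLC40A1, SLC11A1, SLC48A1). The genes were chosen by name from the 58735 listed, with their differences between untreated and 8p-treated cells already known. Those differences are therefore given as a description, without p-values for the 10 genes. RNA came from MOLM-13, an established human acute myeloid leukaemia line with a KMT2A rearrangement, labelled wild type in every library. The controls were left untreated (n = 3). The treated cultures (n = 3) received 3.5 nM 8p, a synthetic inhibitor that the submitters describe as acting on the receptor tyrosine kinase RET and on CDK kinases, with CDK8 named in the sample labels. Control and treated cells were incubated for 48 hours, and the replicates are described as independent biological ones of this single line. Whether the controls received the solvent of 8p is not stated, so its effect and that of 8p cannot be told apart.

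Heme oxygenase opens the heme ring and releases iron, carbon monoxide and biliverdin, which biliverdin reductase turns into bilirubin. Freed iron is oxidised and stored inside the ferritin shell, built of heavy and light chains, or leaves the cell through ferroportin. Most cells take up iron as transferrin through the transferrin receptor, and macrophages also recover it from the heme of engulfed red cells. The iron regulatory proteins bind hairpins called iron-responsive elements in messenger RNAs. They block translation from a hairpin in the 5′ untranslated region and protect a messenger RNA that carries hairpins in its 3′ untranslated region.

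Such hairpins were looked for in the transcripts of GENCODE release 29, because they are the sequence feature that links several of the 10 genes. The search was for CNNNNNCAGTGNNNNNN on the transcript strand, with A, C or T as the last loop base. The 5 bases before and after the loop had to pair, with at most 1 G-U pair. At least 4 of the 5 flanking base pairs below the unpaired C had to form as well. Of 19922 protein-coding genes searched, 10 held such a hairpin (0.05%), and 4 of these are among the 10 genes studied here: FTH1, FTL and SLC40A1 in the 5′ untranslated region, and TFRC, with 4 matches, in the 3′ untranslated region. The hairpins are given here so that their common core can be compared, with the 6 loop bases in capitals and coordinates on GRCh38.
FTH1, chr11:61967575-61967601, minus strand: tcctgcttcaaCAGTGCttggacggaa
FTL, chr19:48965336-48965362, plus strand: tcttgcttcaaCAGTGTttggacggaa
SLC40A1, chr2:189580662-189580688, minus strand: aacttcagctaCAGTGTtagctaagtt
TFRC, chr3:196050980-196051006, minus strand: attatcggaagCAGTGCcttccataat
TFRC, chr3:196050576-196050602, minus strand: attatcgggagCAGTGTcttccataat
TFRC, chr3:196050511-196050537, minus strand: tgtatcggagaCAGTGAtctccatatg
TFRC, chr3:196050464-196050490, minus strand: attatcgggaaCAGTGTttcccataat

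A match is a description of the letters and no measure of binding. FTH1 and FTL, each with a 5′ match, were higher with 8p. TFRC, with its 3′ matches, was lower with 8p.

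The control libraries held 18834611 to 23485628 counts and the 8p libraries 14972069 to 16210861. Levels are given as CPM, counts per 1000000 after TMM scaling of library sizes, as mean ± SD (n = 3), and a gene was called at an edgeR adjusted p under 0.05. Of 13822 genes tested, 74.7% were called, 37.9% as higher and 36.9% as lower with 8p. The 3 values of each group did not overlap for 77.0% of genes. Among the 9 members with enough counts to be tested, 5 were higher and 3 lower with 8p, and the groups did not overlap for 8. The median log2 fold change of the 9 was 0.74, and that of all genes tested was 0.03. Since the members were chosen with this comparison known, nothing is read from these counts.

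**Figure D1:**
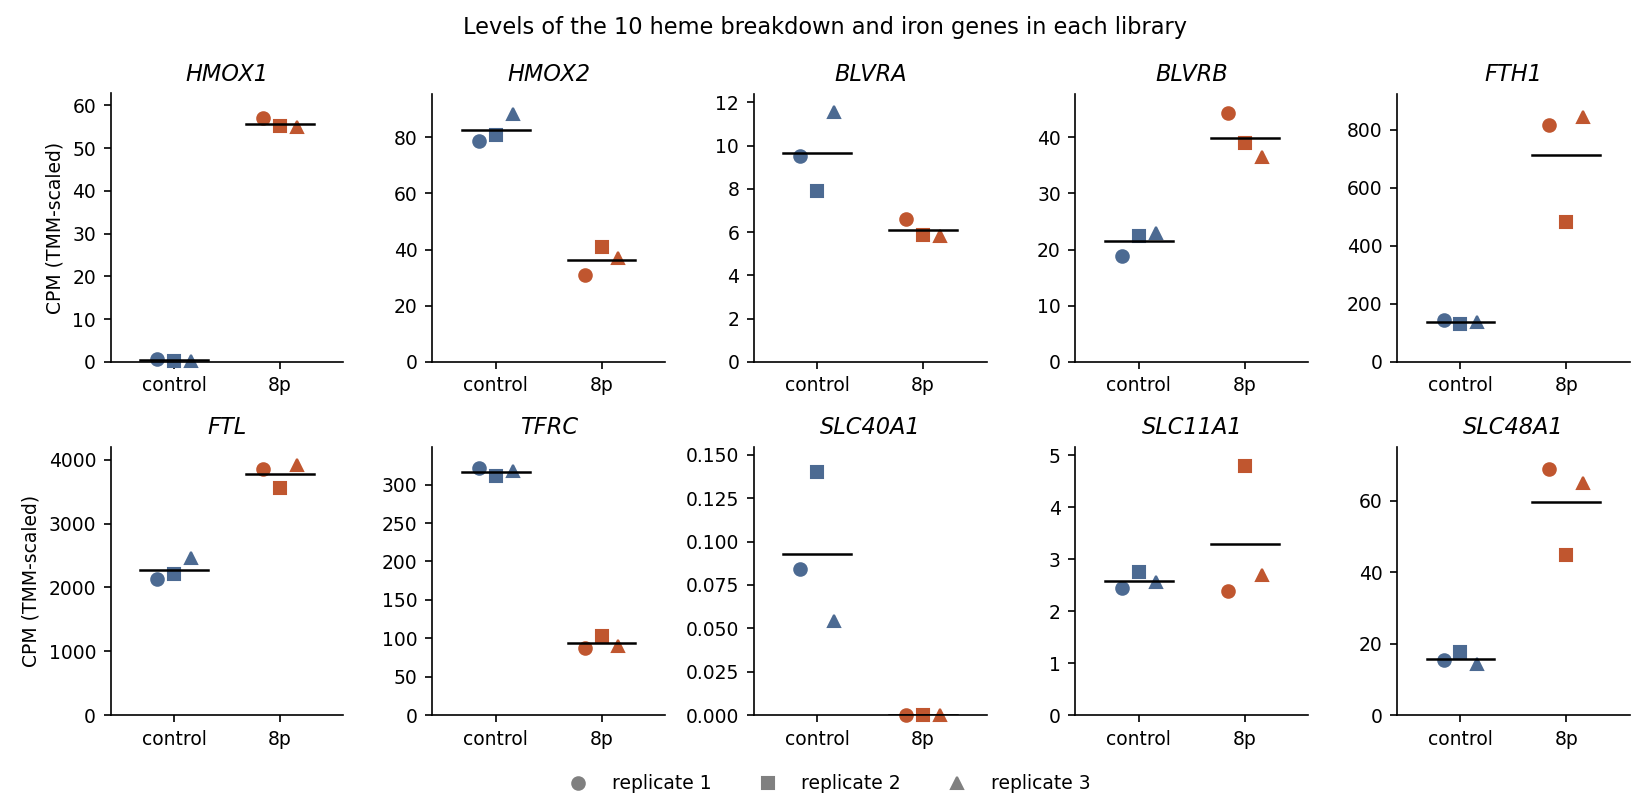
CPM of each of the 10 genes in the 3 control (blue) and 3 8p (orange) libraries, each panel on its own linear axis from 0, with a bar at the group mean and the marker shape giving the replicate. HMOX1 lies between 0.280 and 0.632 CPM in controls and between 55.0 and 57.0 CPM with 8p, while the values of SLC11A1 overlap.

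HMOX1 (ENSG00000100292, chromosome 22, 35380361 to 35394214, plus strand) encodes the inducible heme oxygenase. It was close to silent in the controls, with 15, 6 and 6 counts in replicates 1 to 3, which are 0.632, 0.280 and 0.326 CPM. With 8p it had 856, 920 and 816 counts, or 57.0, 55.1 and 55.0 CPM. The 8p libraries lay within 2 CPM of each other and far above each control, and the ratio of the group means was 135. The fitted log2 fold change of 7.01 (SE 0.17) was the 24th highest of the 13822 genes tested. In RNA from whole cultures, a change in the number of expressing cells and a change in RNA per cell cannot be told apart. It was 7.47 without control replicate 1, which held most of the control counts.

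HMOX2 (ENSG00000103415, chromosome 16, 4474690 to 4510347, plus strand) encodes the constitutive heme oxygenase, and it differed in the other direction. Its CPM values were 78.6, 80.8 and 88.2 in controls and 31.0, 40.9 and 37.1 with 8p. Each 8p library was below each control, with a log2 fold change of −1.18 (SE 0.10). The exons of HMOX2 share 228 of 3793 bases with NMRAL1 on the other strand, whose log2 fold change was −0.74. Since no source used here says whether the counting used strand, reads in that stretch cannot be assigned to either gene.

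Which of the heme oxygenases held most of the messenger RNA differed between the groups. On a scale per kilobase of gene length, HMOX1 held 0.793% ± 0.399 of the summed HMOX1 and HMOX2 signal in controls and 70.8% ± 3.22 with 8p. The single-library shares were 1.25%, 0.545% and 0.580% in controls and 74.3%, 68.0% and 70.1% with 8p. Their sum moved less than either gene, from 21.9 ± 1.28 to 32.7 ± 0.921 CPM per kilobase (RPKM). The lowest 8p sum, 31.9, was above the highest control sum, 23.4.

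BLVRB (ENSG00000090013, chromosome 19, 40447765 to 40465840, minus strand) encodes biliverdin reductase B, which also acts as a flavin reductase. It had 18.9, 22.4 and 23.0 CPM in controls and 44.3, 39.0 and 36.4 CPM with 8p. All 8p values exceeded all controls, with a log2 fold change of 0.90 (SE 0.11). BLVRA (ENSG00000106605, chromosome 7, 43758680 to 43807342, plus strand) encodes biliverdin reductase A, the main adult enzyme for the alpha isomer of biliverdin. It went the other way, from 9.53, 7.90 and 11.5 CPM to 6.59, 5.87 and 5.80 CPM. The gap between the groups was small beside the spread of the controls, whose SD was 1.82 CPM, and the log2 fold change was −0.66 (SE 0.17).

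**Figure D2:**
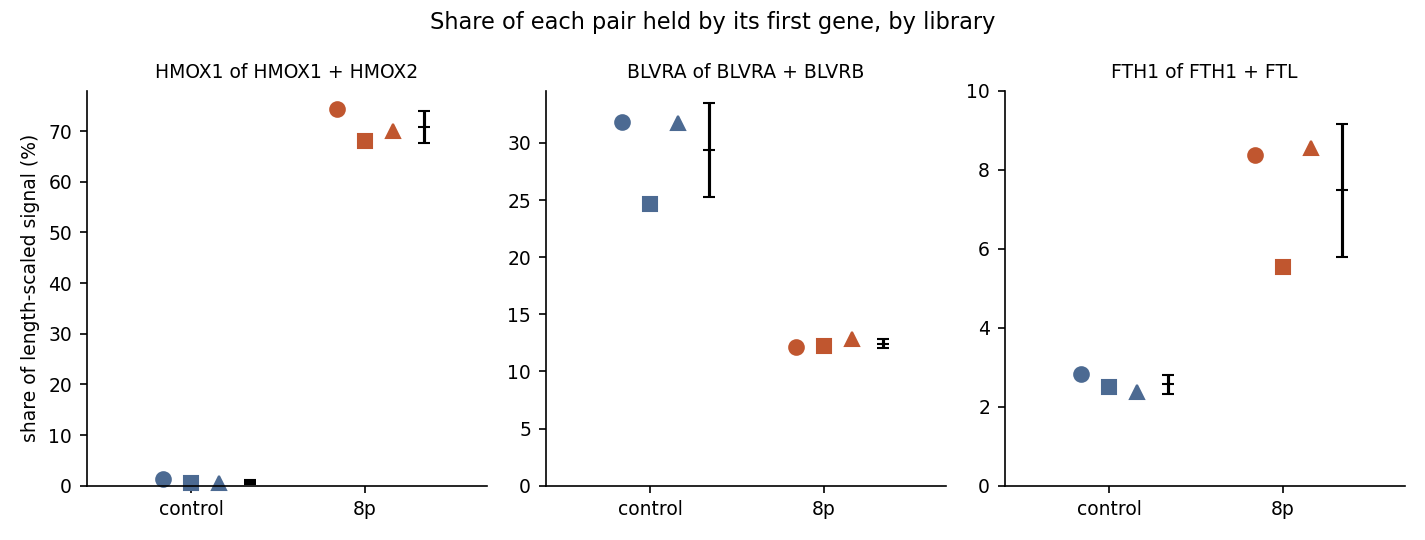
Share of the summed per-kilobase signal of each pair held by its first gene, in percent, for the 3 control (blue) and 3 8p (orange) libraries, with mean and SD (n = 3) as black bars; each axis starts at 0. HMOX1 goes from 0.793% to 70.8% of its pair, BLVRA from 29.4% to 12.4% and FTH1 from 2.56% to 7.48%.

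Of the summed per-kilobase signal of the biliverdin reductases, BLVRA held 29.4% ± 4.11 in controls and 12.4% ± 0.396 with 8p. Single libraries had 31.8%, 24.7% and 31.7% in controls and 12.1%, 12.3% and 12.9% with 8p, with no overlap. The summed level of the pair was 18.0 ± 1.80 RPKM in controls and 26.97 ± 2.59 RPKM with 8p. In the heme oxygenase and the biliverdin reductase step alike, one gene was lower and the other higher with 8p, and the sum of the pair was higher.

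FTH1 (ENSG00000167996, chromosome 11, 61959718 to 61967660, minus strand) encodes the ferritin heavy chain, which carries the ferroxidase activity of the shell. Its CPM values were 144, 131 and 138 in controls and 814, 483 and 844 with 8p. The controls were close together, while 8p replicate 2 was well below the other 8p libraries and still over 3 times the highest control. The log2 fold change was 2.38 (SE 0.15), and 2.56 without 8p replicate 2. FTH1 ranked 609th by RPKM among 19951 protein-coding genes in controls and 92nd with 8p.

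FTL (ENSG00000087086, chromosome 19, 48965301 to 48966878, plus strand) encodes the ferritin light chain, which favours deposition of the iron core. It was the 7th highest protein-coding gene by RPKM in either group. Its CPM values were 2139, 2207 and 2457 in controls and 3857, 3562 and 3913 with 8p. The groups did not overlap, and the log2 fold change was 0.74 (SE 0.08), smaller than that of FTH1. The heavy chain held 2.56% ± 0.233 of the summed per-kilobase ferritin signal in controls and 7.48% ± 1.68 with 8p, where 8p replicate 2 had 5.54% and the others 8.36% and 8.53%.

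Ferritin genes have many near-identical pseudogenes, so their levels depend on how reads with several matches were counted, and no source used here gives that. The table lists 25 numbered FTH1 pseudogenes, 13 of them with a count, and 16 of FTL, 3 with a count. Counts of the FTH1 pseudogenes came to between 1.697% and 1.761% of the FTH1 counts in controls and to 1.46%, 2.20% and 1.35% with 8p. Those of FTL came to at most 0.0185%. The heavy chain share is therefore uncertain as a level, and reads dropped as ambiguous are not seen in these counts.

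TFRC (ENSG00000072274, chromosome 3, 196027183 to 196082189, minus strand) encodes transferrin receptor 1, the main route of iron into dividing cells. It had 321, 311 and 318 CPM in controls and 87.8, 102 and 89.9 CPM with 8p. The libraries of each group were close together, and the mean was 3.39 times lower with 8p. The log2 fold change of −1.76 (SE 0.07) was the 992nd lowest of the genes tested. Ferritin and the transferrin receptor thus lay on opposite sides of the comparison.

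SLC48A1 (ENSG00000211584, chromosome 12, 47753916 to 47782753, plus strand) encodes HRG1, which moves heme out of endosomes and lysosomes into the cytosol. It had 15.4, 17.8 and 14.3 CPM in controls and 68.9, 44.9 and 65.0 CPM with 8p. As with FTH1, 8p replicate 2 was the lowest treated library and above each control. The log2 fold change was 1.91 (SE 0.14), and 2.05 without 8p replicate 2. HDAC7 overlaps SLC48A1 on the other strand by 32 of 4921 exon bases and had a log2 fold change of 0.58.

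SLC11A1 (ENSG00000018280, chromosome 2, 218382029 to 218396894, plus strand) encodes NRAMP1, a metal transporter of the phagosome membrane in macrophages. It had 2.45, 2.76 and 2.56 CPM in controls and 2.40, 4.79 and 2.70 CPM with 8p. The groups overlapped, and a single treated library, 8p replicate 2, stood above the rest. The log2 fold change was 0.36 (SE 0.28), and −0.05 without that library, so no direction can be given. SLC40A1 (ENSG00000138449, chromosome 2, 189560579 to 189583758, minus strand) encodes ferroportin, the cellular iron exporter. It had 2, 3 and 1 counts in the controls and none in the 8p libraries, too few to be tested. With a floor of 3 counts over the 8p group, an 8p level of up to 0.0645 CPM was not detectable at this depth. The pooled control level, 0.0945 CPM, was 1.47 times that floor. The counting error of the 6 control counts is not included, so no direction is given for SLC40A1.

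**Figure D3:**
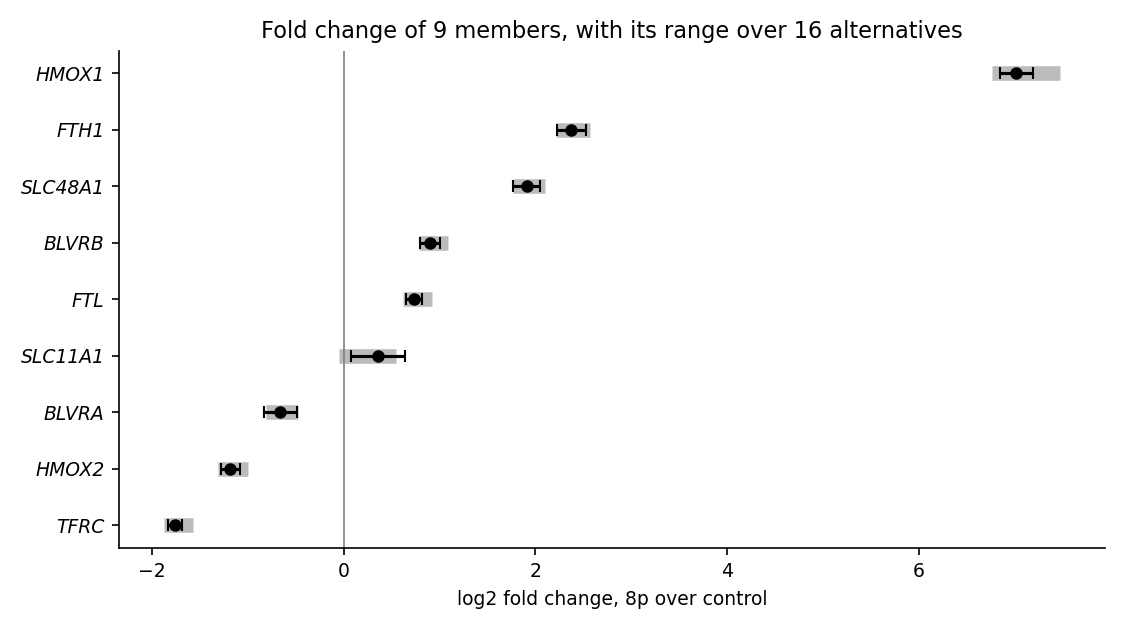
Log2 fold change of 8p over control for the 9 members with enough counts (points, with bars of 1 SE), and the lowest to highest value over 16 other ways of fitting (grey bands). HMOX1 lies at 7.01, FTH1 at 2.38 and TFRC at −1.76, and the grey band of SLC11A1 alone crosses 0.

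Per kilobase, the order of the levels changed. In controls FTL led with 2583 ± 190.5 RPKM, followed by FTH1 (67.7 ± 3.17), TFRC (40.1 ± 0.647), HMOX2 (21.8 ± 1.33) and BLVRB (12.7 ± 1.30). BLVRA, SLC48A1, SLC11A1, HMOX1 and SLC40A1 were below these, from 5.30 down to 0.0215 RPKM. With 8p FTL (4302 ± 215) and FTH1 (352 ± 98.7) still led. BLVRB (23.6 ± 2.36) and HMOX1 (23.2 ± 0.451) came next and did not differ beyond their spread, and neither did SLC48A1 (12.1 ± 2.61) and TFRC (11.8 ± 1.00). HMOX2 stood at 9.58 ± 1.31 RPKM.

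The first principal component, with 88.5% of the variance, separated the groups. On the second, with 4.61%, 8p replicate 2 scored 34.99, and the remaining treated libraries scored −16.7 and −18.6. Mitochondrially encoded genes took 6.42% of counts in 8p replicate 2, 9.98% to 10.004% in the other 8p libraries, and 1.64% to 1.91% in controls. The distance of 8p replicate 2 from the mean of the other treated libraries was −0.78 for FTH1, −0.57 for SLC48A1 and 0.89 for SLC11A1 on the log2 CPM scale. Over all genes tested the median size of that distance was 0.17, and 7.31%, 12.5% and 5.61% of genes were as far or farther than these members. For HMOX1, at −0.02, the treated libraries were close together. The part of that library's other features in these values was not tested.

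**Figure D4:**
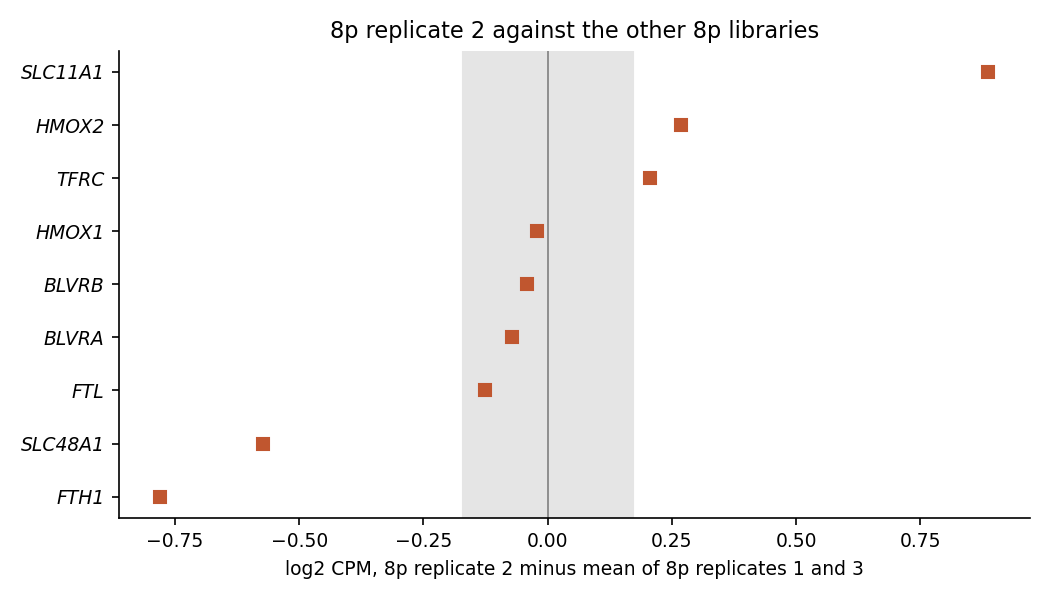
Difference in log2 CPM between 8p replicate 2 and the mean of 8p replicates 1 and 3 for the 9 members tested (squares), with the median size over all genes tested, 0.17 in either direction, as a grey band. FTH1 (−0.78) and SLC48A1 (−0.57) lie lower and SLC11A1 (0.89) higher in replicate 2, and HMOX1, BLVRA, BLVRB and FTL lie inside the band.

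The genes nearest to HMOX1 in pattern were sought among 11491 protein-coding genes, by the root mean square distance over the 6 libraries between log2 CPM profiles centred on the control mean. They were SLC26A11 (distance 0.15), PROC (0.31), HLA-DRA (0.62), LGALS2 (0.71) and SLAMF7 (0.80). For TFRC the nearest were NAT10 (0.03), NCL (0.04), IMP4 (0.05), NOC4L (0.05) and EXOSC2 (0.05). The distances are far larger around HMOX1, where few genes changed as much. The profiles carry a prior count of 2, which shrinks differences of genes near 0 counts. SLC26A11, with a fitted log2 fold change of 9.19, thus lay nearer to HMOX1 (7.01) than LGALS2 did with 7.25.

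Other genes of heme and iron metabolism were taken from 6 lists that hold none of the 10 genes and were drawn up by function. Each list's counts are to be read against the 37.9% of all genes called higher and the 36.9% called lower, and no list was tested as a set. Heme synthesis runs from mitochondrion to cytosol and back. Of 13 listed genes 12 were tested, 4 rose and 6 fell, and the median log2 fold change was −0.23. The share called, 83.3%, was near the 74.7% of all genes. UROS, which closes the porphyrin ring, fell by 0.54 on the log2 scale (edgeR adjusted p = 3.85e-05). FECH, the ferrochelatase that inserts iron in the last step, fell by 0.45 (adjusted p = 5.52e-04).

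ALAS1, the enzyme of the first step outside the red cell lineage, rose slightly, from 107 ± 5.88 to 128 ± 3.42 CPM (log2 fold change 0.26, adjusted p = 0.00314). ALAD, the second enzyme, rose by 0.73 (adjusted p = 1.37e-06). TMEM14C, a mitochondrial membrane protein needed for porphyrin transport, rose by 0.90 (adjusted p = 3.33e-08). The call of ALAS1 was lost when no filter on low counts was used (log2 fold change 0.14, adjusted p = 0.151).

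**Figure D5:**
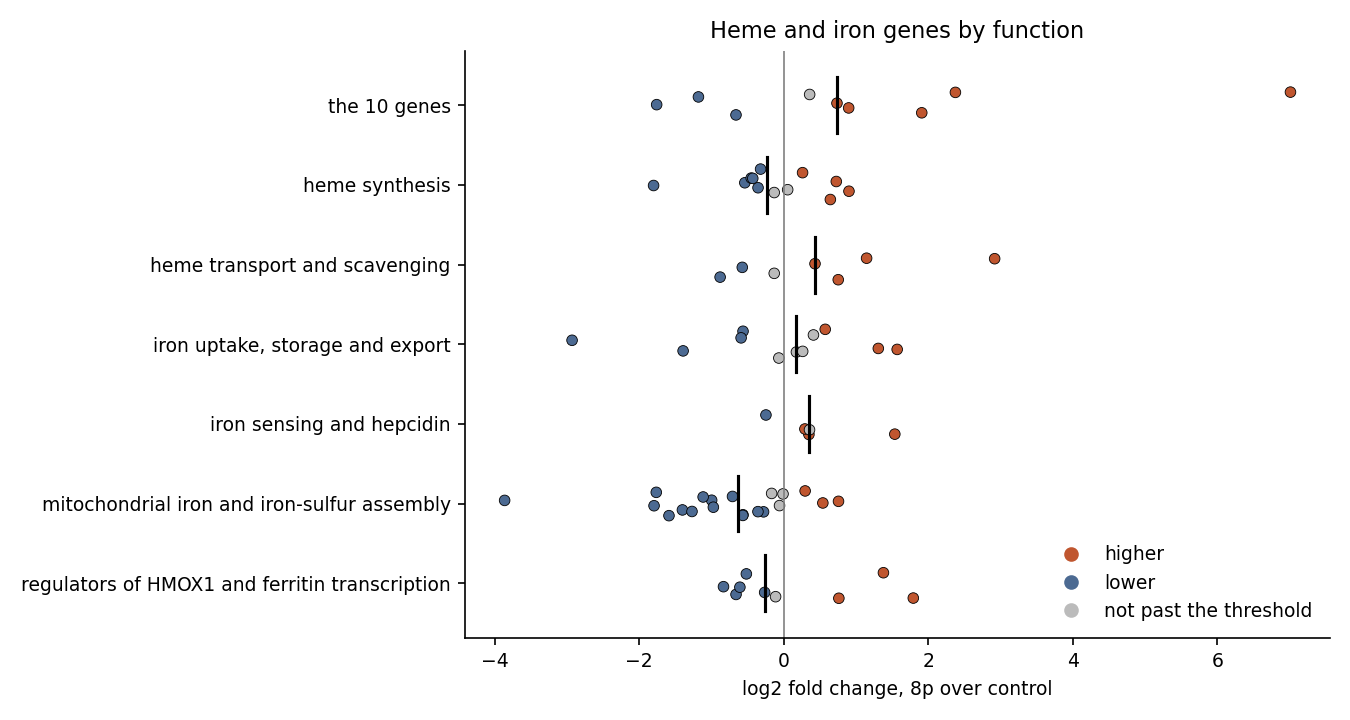
Log2 fold change of 8p over control for each tested gene of the 10 members and of 6 other lists, 1 point per gene, coloured by call, with a black bar at each list's median and vertical scatter for legibility only. The iron-sulfur list has its median at −0.64 with BOLA3 farthest left at −3.86, and HP at 2.92 stands out among heme transport and scavenging genes.

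Among heme transport and scavenging genes, 7 of 13 were tested, 4 rose and 2 fell, with a median of 0.43. HP, which encodes the hemoglobin-binding protein haptoglobin, rose from 3.28 ± 0.791 to 24.7 ± 0.451 CPM (log2 fold change 2.92, edgeR adjusted p = 2.23e-10). FLVCR2, described as a heme or choline transporter, rose by 1.15 (adjusted p = 5.64e-08). It shares 332 of its 4913 exon bases with TTLL5 on the same strand, whose log2 fold change was −0.50. The heme-binding proteins PGRMC1 and PGRMC2 fell by 0.88 and 0.57 on the log2 scale (adjusted p = 4.98e-06 and 3.94e-05). The haptoglobin-hemoglobin receptor CD163 had no count in any library.

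Of 19 listed genes of iron uptake, storage and export 11 were tested, 3 rose and 4 fell, with a median of 0.17. SLC39A14, a zinc and iron importer, fell from 126 ± 8.13 to 16.5 ± 3.16 CPM (log2 fold change −2.93, edgeR adjusted p = 3.46e-12). Its relative SLC39A8 fell by 1.39 (adjusted p = 3.49e-07). NCOA4, the receptor that carries ferritin to the lysosome for breakdown, rose from 383 ± 13.3 to 950 ± 30.2 CPM (1.31, adjusted p = 9.76e-11). CYBRD1, a ferric reductase, rose by 1.57 (adjusted p = 7.32e-08) and SLC11A2, the endosomal iron transporter DMT1, by 0.57 (adjusted p = 2.84e-05). Thus TFRC and the SLC39 importers were lower, while NCOA4 and SLC11A2 were higher. Without 8p replicate 2, 5 genes of this list rose in place of 3.

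Of 11 iron sensing and hepcidin genes only 5 were tested, 3 rose and 1 fell, with a median of 0.35. IREB2, the iron regulatory protein that is degraded when iron is plentiful, rose from 127 ± 4.14 to 162 ± 4.13 CPM (log2 fold change 0.35, edgeR adjusted p = 1.79e-04). ACO1, the other iron regulatory protein, doubles as the cytosolic aconitase and went from 25.0 ± 0.178 to 21.1 ± 1.603 CPM (−0.25, adjusted p = 0.0356). Its call was lost under 7 of 16 alternatives, with the highest adjusted p of 0.594 under upper quartile scaling. FURIN, a protease that processes iron regulators among many substrates, rose by 1.54 (adjusted p = 7.29e-11). The hepcidin gene HAMP had no count.

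The next list covers the mitochondrial import of iron and its building into iron-sulfur clusters. Of 22 genes of mitochondrial iron and iron-sulfur assembly 20 were tested, 14 fell and 3 rose, with a median of −0.64, beside 36.9% lower and 37.9% higher over all genes. BOLA3, which helps to pass clusters to target enzymes, fell from 48.5 ± 4.04 to 3.35 ± 1.10 CPM (log2 fold change −3.86, edgeR adjusted p = 1.07e-11). CISD3, an iron-sulfur protein of the matrix, fell by 1.80 (adjusted p = 2.09e-09). SLC25A37, the mitochondrial iron importer mitoferrin 1, rose from 120.1 ± 9.25 to 203 ± 4.79 CPM (0.76, adjusted p = 1.14e-07). HSCB, a cochaperone of cluster assembly, rose by 0.54 (adjusted p = 0.00319) but shares 301 of 1462 exon bases with CHEK2 on the other strand (log2 fold change −1.58).

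Of 10 regulators of HMOX1 and ferritin transcription, which are transcription factors and the NRF2 ubiquitin ligase components KEAP1 and CUL3, 9 were tested, 3 rose and 5 fell, with a median of −0.26. BACH1, a heme-binding repressor of HMOX1, rose from 26.3 ± 0.779 to 68.5 ± 6.16 CPM (log2 fold change 1.38, edgeR adjusted p = 1.07e-09). NFE2L2, which encodes the activator NRF2, had 82.5 ± 4.81 CPM in controls and 76.2 ± 3.12 CPM with 8p (−0.11, adjusted p = 0.180), with overlapping groups. Its log2 fold change was 0.07 under upper quartile scaling, and it was called lower when no filter was used (adjusted p = 0.0197), so no direction is given. The exons of NFE2L2 share 54 of 5979 bases with AGPS on the other strand, whose log2 fold change was −0.69. KEAP1 and CUL3, which direct NRF2 to degradation, fell by 0.52 and 0.66 on the log2 scale (adjusted p = 4.51e-06 and 1.86e-06). NFE2, a related factor of myeloid and erythroid cells, rose by 1.79 (adjusted p = 6.34e-11). MAFF, a small MAF partner, fell by 0.83 (adjusted p = 0.0135), a call lost without control replicate 1 (adjusted p = 0.0517) or 8p replicate 1 (0.0509). The higher HMOX1 level stood beside higher BACH1, lower KEAP1 and CUL3, and no called change of NFE2L2 messenger RNA. The other tested regulators, NFE2 and MAFF among them, went in both directions. The part of these genes in the HMOX1 level was not tested.

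Of the markers of a myeloid line, CD33, SPI1, MPO, LYZ, ITGAM, CSF1R and CEBPA had counts in every library. ITGAM was low, at 4.24 ± 0.136 CPM in controls and 3.57 ± 1.03 CPM with 8p, and was not called. The summed level of the 8 myeloid markers was 1710 to 1835 CPM in controls and 4593 to 5174 CPM with 8p, mostly from LYZ. Members of that list went in both directions: CD33 and MPO fell by 0.50 and 0.64 on the log2 scale (edgeR adjusted p = 4.88e-05 and 4.69e-07), while LYZ rose by 1.84 (4.59e-11) and CSF1R, the receptor of macrophage colony-stimulating factor, by 3.87 (8.52e-14). CD68 had at most 0.253 CPM. The part of this shift in the results on heme and iron genes was not tested. Red cells and their precursors are rich in heme genes. Of 14 erythroid markers 8 had no count, among them HBA1, HBB and AHSP, and the sum was 6.97 to 10.5 CPM in controls and 8.30 to 9.58 CPM with 8p, nearly all of it TFR2. The erythroid enzyme ALAS2 had at most 0.202 CPM. The T and NK cell sum was 34.5 to 36.9 CPM in controls and 34.3 to 45.1 CPM with 8p. Its 4 tested genes went in both directions. TRAC and CD3D fell by 1.42 and 2.64 on the log2 scale, while NKG7 and GNLY rose by 0.78 and 2.95. The B cell sum was at most 2.29 CPM. The sum of the epithelial and fibroblast markers was at most 10.3 CPM in controls and at least 31.6 CPM with 8p. The 8p sum came mostly from COL1A1, a collagen gene that went from 0.542 ± 0.297 to 31.8 ± 5.99 CPM. KRT8 rose from 0.956 ± 0.393 to 2.08 ± 0.515 CPM. It shares 525 exon bases with KRT18 on the other strand, so reads in that stretch cannot be assigned to either gene. KRT18 fell from 8.48 ± 0.704 to 3.06 ± 0.410 CPM, and EPCAM, KRT19, COL1A2 and COL3A1 had no count in any library. The megakaryocyte sum was 1.96 to 2.23 CPM in controls and 2.70 to 3.30 CPM with 8p.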

How the data were processed

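RNA of 6 MOLM-13 cultures was sequenced, and the authors deposited 1 table of raw counts per gene for the 6 libraries. Reads were aligned to hg38 with HISAT2 2.0.5 and counted with featureCounts 1.5.0-p3, per the submitters' processing notes. The notes also name DESeq2 1.20.0 and edgeR 3.22.5. The strand setting and the treatment of reads with several matches are not given in the sources used here, and the labels' protocols name poly(A) capture or rRNA removal without saying which. The extraction step they describe is of genomic DNA, with a kit made for DNA and RNA, and no source used here describes that of RNA. All 58735 gene identifiers and positions equal those of GENCODE release 29. Total counts ran from 14972069 to 23485628 per library, and HMOX1 and SLC40A1 in controls rest on few counts.

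From these counts, edgeR 4.0.16 in R 4.3.3 was run on all genes passing filterByExpr, with TMM scaling, the quasi-likelihood test and Benjamini-Hochberg adjustment over 13822 genes at 0.05. The script was run on simulated data as a check of the code, with far fewer genes changed than in these libraries. That check gives no error rate for these data. CPM uses TMM-scaled totals, and RPKM divides it by the deposited gene length. Log2 CPM profiles used a prior count of 2.

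The 10 genes and the other lists were chosen with earlier results of these data known. Besides the 10 genes, the text names up to 2 genes called higher and 2 called lower per list with the largest fold changes and no overlap, plus NFE2L2, KEAP1, BACH1, IREB2, ACO1, ALAS1, FECH, NCOA4 and SLC11A2, and the 5 nearest in pattern to HMOX1 and TFRC. CD163 and HAMP were named after their values were seen, and some genes that the rule picks are not reported here. Genes of the lists that overlap another gene in exons, with a partner of at least 10 percent of their counts, were looked up. Hairpin sequences were read from GENCODE release 29. Alternatives included DESeq2 1.42.0, limma-voom (limma 3.58.1), other scalings and filters, a replicate block and leaving out each library.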

Additional observations from a re-analysis of the deposited data

How the results depend on the processing

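Under 16 alternatives to the edgeR fit, each of the 9 tested members kept its side of the threshold, and the 8 called members kept their direction. The log2 fold change ran from 6.76 to 7.47 for HMOX1, from 2.22 to 2.56 for FTH1 and from −1.88 to −1.57 for TFRC, while that of SLC11A1, which was not called, ran from −0.05 to 0.54. Upper quartile scaling moved the median log2 fold change of all genes from 0.03 to 0.22 and the share of calls that were higher from 50.6% to 59.4%.

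With a fold change of at least 2 also required, 5304 of the 13822 genes tested were called, with 3 members higher and 2 lower. The same rule left 0 genes higher and 1 lower in heme synthesis, 2 and 0 in heme transport and scavenging, and 0 and 7 in mitochondrial iron and iron-sulfur assembly. It left 2 higher and 2 lower in iron uptake, storage and export, and 1 higher and 0 lower in iron sensing and hepcidin. Among the regulators it left 2 higher and 0 lower. Genes of iron uptake, storage and export that were higher numbered 5 under upper quartile scaling and with protein-coding genes alone, and 3 to 5 when each library was left out. For iron sensing and hepcidin, the 1 gene called lower became 2 with DESeq2 or without a filter. It became 0 with upper quartile scaling, at least 1 CPM in 3 libraries, protein-coding genes alone, an adjusted p under 0.01 or the replicate block, and ran from 0 (without control replicate 1) to 2 (without 8p replicate 1 or 2) when each library was left out. Regulators called lower numbered 3 at an adjusted p under 0.01, and 3 (without control replicate 1) to 5 when each library was left out. Of the other named genes, 437 of 448 values kept direction and call. The cause of these changes was not tested, apart from the stricter thresholds themselves.

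Without division by gene length, HMOX1 held 60.6% of its pair with 8p, BLVRA held 13.3% with 8p, and FTH1 held 5.73% in controls and 15.7% with 8p. Libraries with the same replicate number did not deviate together (correlations of −0.01, −0.02 and −0.04), so the numbers are taken as names only. With the replicate block, 10090 genes were called in place of 10330. Depth limits SLC40A1, SLC11A1 and the control level of HMOX1.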

Other observations

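The upper stem and loop of the iron-responsive element alone, without the lower pairs, matched 127 of 19922 protein-coding genes (0.637%). Of these, 91 were tested, 30 were higher and 32 lower with 8p, and the median log2 fold change was 0.02. Matches in the 5′ untranslated region were found in 15 genes, of which 12 were tested, 3 higher and 5 lower, with a median of −0.09. In the 3′ untranslated region they were found in 80 genes, of which 57 were tested, 19 higher and 19 lower, with a median of 0.08. Outside the 10 genes studied here, genes with the complete hairpin included ADARB1, CAV3 and CDC14A in the 3′ untranslated region, ALAS2 in the 5′ untranslated region, and PNCK in its coding part. ADARB1, an RNA-editing enzyme, had a log2 fold change of 0.41 and CDC14A, a phosphatase, one of −0.16.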
